A study of Mus musculus with 8 samples.

Results

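The promoters of 710 autosomal mouse genes that carry only a provisional symbol, the letters Gm followed by a number, were examined by reduced representation bisulfite sequencing (RRBS) in germline stem (GS) cells. They were taken from the promoter table of the series by symbol, and they held 7147 of its 203645 cytosines and 710 of its 9224 promoters. Set aside were 13 Gm promoters with 176 sites on the sex chromosomes and 8 further Gm genes with 131 sites. Of those 131 sites, 59 were more than 20 percentage points higher in the lines from mice born after sperm injection, so the selection was not independent of that comparison. The groups compared are offspring of natural mating and of intracytoplasmic sperm injection (ICSI), in which a sperm is injected into an oocyte, within a study of how germ cell manipulation affects offspring. GS cells are spermatogonia that keep stem cell activity in culture, and the lines were started from CD9-sorted spermatogonia of mature testes. All 8 lines were on the B6 background and were kept in the same defined medium. The study calls the injected sperm wild type, although its methods took that sperm from green mice, which carry an Egfp transgene. Whether the lines carry the transgene is not stated in the study. The 4 control-F1 lines (29, 37, 44 and 45) came from naturally mated mice and the 4 ICSI-F1 lines (11, 17, 20 and 21) from mice born after ICSI with wild-type sperm. Each line gave 1 library, and the labels do not say whether lines of a group shared a litter, so the tests measure the spread between lines. RRBS was done on DNA of whole cultures. There a level between the extremes at a single site can be a share of the cells or of the alleles, and these cannot be told apart. A promoter mean between the extremes can also come from high and low sites in the same promoter. At Gm40438, for example, single sites ran from 0% to 100% in ICSI-F1 line 11, where the mean was 20.1%. The study removed embryonic fibroblasts from the cultures before RNA collection and names no such step for RRBS. A share of fibroblast DNA in the levels was not tested.

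Gm symbols are placeholders given by the mouse nomenclature to gene models without a known function. Most of those examined here are annotated as long noncoding RNAs. In mammalian cells, promoters dense in CpG are mostly kept free of methylation, whereas CpG-poor sequence is mostly methylated. Many long noncoding RNAs start next to a protein-coding gene and are transcribed away from it from a shared CpG-rich stretch, while others start alone, often within repeats.

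The measured CpGs of 7 promoters are shown because they mark the ends of the range described below. Sequences were read from the mm10 (GRCm38) reference in the direction of the gene, and capitals mark the CpGs measured in all 8 lines. The promoters with the most sites were dense in CpG, and 37 and 42 of their measured CpGs lay in the 299 bases printed.
Gm27032 (chr2:180893098-180893396, plus strand): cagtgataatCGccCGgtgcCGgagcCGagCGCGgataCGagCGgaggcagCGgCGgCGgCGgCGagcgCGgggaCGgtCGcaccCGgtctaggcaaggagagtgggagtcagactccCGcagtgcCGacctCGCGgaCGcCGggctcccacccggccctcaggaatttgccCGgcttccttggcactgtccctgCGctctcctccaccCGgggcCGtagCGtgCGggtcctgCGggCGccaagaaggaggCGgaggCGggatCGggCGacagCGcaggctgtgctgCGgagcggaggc
Gm27017 (chr14:61648166-61648464, plus strand): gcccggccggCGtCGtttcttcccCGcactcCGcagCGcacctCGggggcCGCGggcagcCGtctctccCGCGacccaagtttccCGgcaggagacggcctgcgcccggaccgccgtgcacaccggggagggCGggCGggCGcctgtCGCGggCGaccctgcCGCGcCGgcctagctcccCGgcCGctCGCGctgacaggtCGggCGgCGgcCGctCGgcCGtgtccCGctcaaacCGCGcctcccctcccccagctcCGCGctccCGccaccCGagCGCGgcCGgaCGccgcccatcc
The promoters with the highest levels were poorer in measured CpGs, with 5 and 6 in the stretches printed. The reference soft-masks 90.9% and 97.6% of the bases printed for Gm20110 and Gm48283 as repeats. The 1-kb promoter window of Gm20110 also shared a stretch of 100 bases with another promoter window, so its reads may be split between copies.
Gm20110 (chr10:99608800-99608920, plus strand): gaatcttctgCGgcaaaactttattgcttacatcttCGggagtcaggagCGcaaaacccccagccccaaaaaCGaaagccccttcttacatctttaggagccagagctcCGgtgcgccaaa
Gm48283 (chr14:19866221-19866345, plus strand): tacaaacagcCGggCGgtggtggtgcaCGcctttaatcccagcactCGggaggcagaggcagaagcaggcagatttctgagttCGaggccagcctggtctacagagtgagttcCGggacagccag
The promoter with the largest excess in the ICSI-F1 lines was Gm33728.
Gm33728 (chr10:21252292-21252409, minus strand): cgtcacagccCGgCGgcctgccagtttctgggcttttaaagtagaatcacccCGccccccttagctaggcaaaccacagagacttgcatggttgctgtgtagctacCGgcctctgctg
The promoters with the largest deficit in the ICSI-F1 lines were Gm11734 and Gm33630.
Gm11734 (chr11:117523311-117523378, plus strand): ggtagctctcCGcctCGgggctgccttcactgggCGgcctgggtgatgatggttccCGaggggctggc
Gm33630 (chr13:44100875-44100958, minus strand): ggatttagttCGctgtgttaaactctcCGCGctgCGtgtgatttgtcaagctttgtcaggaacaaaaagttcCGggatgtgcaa

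The methylation level was the share of methylated reads at a site in percent, and each group is given as the plain mean of its 4 lines. Gm promoters were sparsely covered, with a median of 5 sites against 15 in the 8286 promoters of all other autosomal symbols. Of the 710 promoters, 387 had at least 5 sites and 86 had 1 site. With the authors' scaling undone, sites were covered by a median of 42 reads in line 37 and 79 reads in line 45, the lowest and highest of the 8 lines. At such coverage the level of a single site carries a counting error of several percentage points, and levels averaged over many sites are more precise. The labels and read numbers separate the libraries into 2 sets that cross the groups, lines 29, 37, 11 and 17 (set 1) and lines 44, 45, 20 and 21 (set 2). All 4 lines of set 2 had higher mean levels at the Gm sites (25.6% or more) than all 4 lines of set 1 (24.6% or less). The sets differed by 2.89 percentage points at Gm sites and by 2.25 at sites of the other genes. Comparisons between gene classes were therefore made within each line. The group difference in mean level and at many of the named promoters is given within each set as well.

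Promoters of Gm genes were far more methylated than those of other genes. The mean level over the Gm sites was 23.4%, 23.1%, 27.5% and 25.6% in control-F1 lines 29, 37, 44 and 45. It was 23.8%, 24.6%, 26.4% and 26.9% in ICSI-F1 lines 11, 17, 20 and 21. The sites of the other genes averaged 6.93% ± 1.25 (SD, n = 8), and no line exceeded 8.58%, so the classes did not overlap. The difference within a line was 18.2 percentage points on average and lay between 17.3 and 19.4. Gm sites were higher in 8 of 8 lines (exact two-sided sign-flip permutation test, p = 0.00781). This p is the smallest that 8 lines allow, and it stayed the same after Benjamini-Hochberg adjustment over the 22 comparisons of this kind, all of which reached it. Counting each promoter once, Gm promoters averaged 45.6% ± 1.94 (SD, n = 8) and the others 13.1% ± 1.42.

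The level of Gm promoters had 2 separate peaks. Of the 710 promoters, 325 (45.8%) lay below 20%, 126 (17.7%) between 20% and 80%, and 259 (36.5%) at 80% or above. Among the other genes these shares were 87.5%, 6.60% and 5.87%. The bin from 0% to 10% held 37.3% of the Gm promoters and the bin from 90% to 100% held 31.8%, against 76.7% and 4.88% of the others. Promoters of genes whose symbol ends in Rik, another class of provisional names, lay in between, with 60 of 349 at 80% or above. The within-line difference between Gm and Rik sites was 13.5 percentage points, with Gm sites higher in 8 of 8 lines (exact sign-flip permutation test, p = 0.00781).

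**Figure D1:**
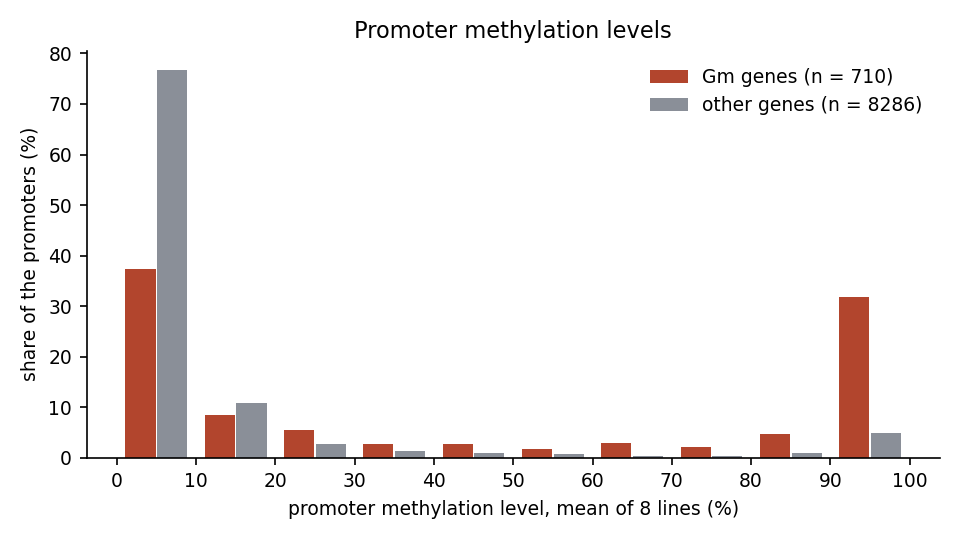
Share of promoters (%, vertical axis) in each 10-point bin of promoter methylation level (%, horizontal axis, mean of the 8 lines), for 710 Gm promoters and 8286 promoters of other genes. The Gm promoters fall into a low peak with 37.3% of them below 10% and a high peak with 31.8% at 90% or above.

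The position of the sites relative to CpG islands differed between the classes. Of the Gm sites, 48.9% were annotated as CpG island, 7.79% as shore, 1.72% as shelf and 41.6% as outside all of these. Of the sites of other genes, 78.0% lay in islands and 10.5% outside islands, shores and shelves. Within islands the levels were 6.43% ± 1.29 (SD, n = 8) at Gm sites and 4.90% ± 1.158 at the others. The difference of 1.52 percentage points was seen in 8 of 8 lines, and it was 3.31 with each promoter counted once. In shores Gm sites averaged 18.7% and the others 11.2%, and in shelves 45.02% and 16.2%. Outside islands, shores and shelves Gm sites averaged 47.6% ± 2.15 (SD, n = 8) and the others 16.9% ± 1.499. There the difference was 30.7 percentage points and lay between 29.7 and 32.2 in the 8 lines (exact sign-flip permutation test, p = 0.00781). Gm sites were thus higher at each annotation, in 8 of 8 lines.

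**Figure D2:**
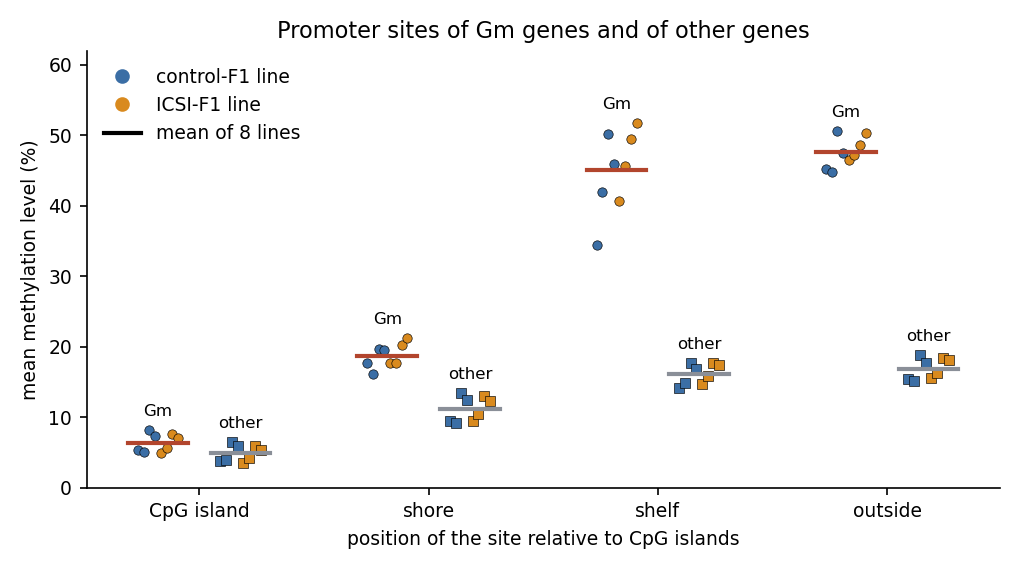
Mean methylation level (%, vertical axis) of promoter sites of Gm genes (circles) and of other genes (squares) by position relative to CpG islands (horizontal axis), 1 point for each of the 8 lines and a bar for their mean. Gm and other sites were 1.52 percentage points apart in islands and 30.7 apart outside islands, shores and shelves.

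CpG content followed the same order. The ratio of observed to expected CpG in the 1 kb upstream of the start had a median of 0.49 in the Gm promoters below 20%, 0.30 in those between 20% and 80% and 0.24 in those at 80% or above. The median number of CpGs per kb was 33, 18 and 14 in these classes, and the median GC content was 53.1%, 47.95% and 47.4%. Spearman's rho between level and CpG ratio was −0.622 across the 710 Gm promoters and −0.319 across the 8286 others, as a description over promoters that share the same 8 libraries. An island site was present in 151 of the 325 low promoters, 15 of the 126 middle ones and 2 of the 259 high ones. Those 2, picked out after their values were seen, were Gm49980 on chromosome 18, with 13 island sites at a mean of 95.9% and a range over lines of 90.1% to 98.3%, and Gm21863 on chromosome 12, with 3 island sites at 81.8%. RRBS fragments end at the MspI motif CCGG, which was present in 98.6% of the Gm windows and 99.6% of the other windows of 1 kb, with a median of 3 and 4 copies.

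Gm promoters next to the start of a protein-coding gene were low, and those that stood alone were mostly not. A protein-coding start within 1 kb was annotated for 120 Gm genes, and for 109 of them it lay on the opposite strand. Whether it lay upstream, as in a divergent pair, was not checked. These 120 promoters averaged 8.58% ± 1.13 (SD, n = 8), and 111 of them were below 20%. The 590 Gm promoters without such a neighbour averaged 53.1% ± 2.13, and 258 of them were at 80% or above. The difference within a line was 44.5 percentage points and lay between 42.6 and 46.3 (higher without a neighbour in 8 of 8 lines, exact sign-flip permutation test, p = 0.00781). Among the other genes the same contrast was 6.97 percentage points, 13.9% without and 6.94% with a second coding start. With a coding start nearby, Gm promoters were 1.64 percentage points above other genes in the same setting, and without one they were 39.2 percentage points above. The contrast was also present among promoters without any island site, where the 509 Gm promoters without a neighbour averaged 59.3% and the 33 with one 15.3%.

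The coding neighbours include genes of many kinds. Among the Gm promoters next to a coding start, the 6 with the most sites were Gm40190 (Bcar3, an adaptor protein, 121 sites), Gm50341 (Pip5k1b, a phosphoinositide kinase, 55 sites), Gm49336 (Nupl1, a nuclear pore subunit, 49 sites), Gm28982 (Mettl21a, a methyltransferase, 47 sites), Gm27239 (Sall3, a zinc finger factor, 44 sites) and Gm9484 (Bmp2k, a kinase, 40 sites). Their levels lay between 3.77% and 7.31%. The only promoter of the 120 at 80% or above was Gm44818 on chromosome 7, whose 2 sites averaged 95.1% and whose neighbour Zfp658, a zinc finger gene, starts 937 bases away on the same strand. Gm39121 and Gm45533 were among the other 8 that were not below 20%. Gm39121 starts 68 bases from Fcor and had 8 sites at 45.03%. Gm45533 starts 254 bases from the serotonin receptor gene Htr6 and had 24 sites at 38.9%. Their sites ran to chr8:3673145 and chr4:139076812, downstream of their listed starts. Of all Gm sites, 100 lay downstream of the listed start. The lines lay between 35.7% and 42.3% at Gm45533, so its intermediate level was shared by all 8.

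**Figure D3:**
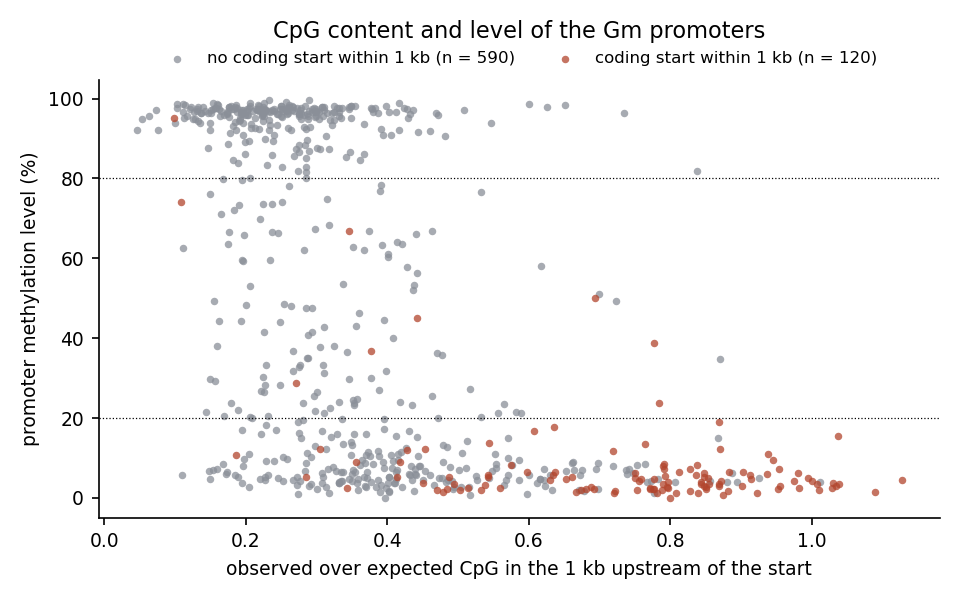
Promoter methylation level (%, vertical axis, mean of 8 lines) against the observed over expected CpG ratio in the 1 kb upstream of the start (horizontal axis) for the 710 Gm promoters, coloured by whether a protein-coding gene starts within 1 kb. Dotted lines mark 20% and 80%, and 111 of the 120 promoters with a coding start nearby lie below the lower line.

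Of the Gm promoters without a coding start nearby, 214 were nevertheless below 20%. Their median CpG ratio was 0.40, against 0.24 in the 258 high ones, and 67 of them had an island site. The most densely covered were Gm27032 (154 sites, 5.10%), Gm27017 (144 sites, 4.09%), Gm36445 (130 sites, 4.08%) and Gm26709 (105 sites, 4.21%). All 154 sites of Gm27032 lay in an island on chromosome 2, and its level ran from 3.35% in line 11 to 8.60% in line 44. Single sites of these promoters still reached high values, and at least 1 site of Gm27032 was at 100% in every line.

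By annotated biotype, 538 of the Gm genes were lincRNAs (long intergenic noncoding RNAs), 103 antisense RNAs, 67 protein coding and 2 immunoglobulin V pseudogenes. The lincRNA promoters averaged 48.5% ± 2.08 (SD, n = 8), against 29.8% ± 1.79 for the 225 lincRNA promoters of other symbols. Of those 225, 189 were Rik genes, so they were mostly another class of provisional names. Antisense promoters averaged 33.8% against 18.7% for the 63 other antisense genes, 34 of them Rik genes, and protein-coding ones 38.8% against 12.3%. Gm promoters were higher in 8 of 8 lines in each of these comparisons (exact sign-flip permutation test, p = 0.00781). The gap was thus present within every biotype compared. Among lincRNAs without a coding start within 1 kb, the 472 Gm promoters averaged 53.8% and the 174 others, Rik genes included, 36.2%. The immunoglobulin pseudogenes Gm42606 and Gm43583, both on chromosome 6, had levels of 96.1% and 92.2% from 2 and 1 sites.

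Distance from the start and repeats also went with the level. In Gm promoters without a coding neighbour, sites within 100 bases upstream of the start averaged 20.96% ± 1.77 (SD, n = 8), and sites at 500 to 1000 bases averaged 37.02% ± 1.92. In Gm promoters with a coding neighbour the same bins averaged 5.08% and 7.36%, the latter from 30 sites of 3 promoters. Sites of other genes without a second coding start averaged 5.36% within 100 bases and 13.4% at 500 to 1000 bases. Of the Gm sites, 491 (6.87%) lay in bases that the reference soft-masks as repeat, and they averaged 53.0%, against 23.1% for the rest. Outside islands, shores and shelves the averages were 74.4% for 311 masked Gm sites and 44.5% for 2661 unmasked ones. Unmasked sites of other genes with the same annotation averaged 15.6%. These bins and splits were compared without a test.

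High and low promoters were found on every autosome. The number of Gm promoters per autosome ran from 18 on chromosome 16 to 57 on chromosome 5, and the share at 80% or above from 20% on chromosome 19 to 50% on chromosome 16. Gm promoters with the same nearest coding start could differ widely. On chromosome 13, Gm2233, Gm20751 and Gm33630 all have Cd83, a surface protein of antigen-presenting cells, as their nearest coding start. They are not adjacent to it in every case, and Gm33630 starts 315185 bases away. Gm2233 was methylated in all lines (93.2% to 100%), Gm20751 averaged 15.4% and Gm33630 ran from 20.5% to 96.7%. The highest levels among promoters with at least 5 sites were those of Gm20110 (98.5%), Gm48283 (98.5%), Gm11373 (98.1%), Gm2233 (98.1%) and Gm33447 (98.1%), and no line was below 93.2% in any of them.

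Gm promoters at intermediate levels differed widely from line to line. Among promoters with at least 5 sites, the level ranged over more than 50 percentage points between lines in 21 of 387 Gm promoters (5.43%) and in 29 of 6736 promoters of other genes (0.431%). All 21 were in the class between 20% and 80%, which held 55 Gm promoters with at least 5 sites. The median range over the 8 lines in that class was 41.1 percentage points for Gm promoters and 17.9 for the others. In the low class these medians were 5.59 and 5.24, and in the high class 5.85 and 6.25. The difference between Gm and other genes in this spread was not tested. Of the 21, line 21 was highest in 9 and line 44 in 5, and lines 29 and 37 were each lowest in 8. By group, control-F1 lines were lowest in 17 and highest in 9 of the 21. By library set, set 1 lines were lowest in 19 and set 2 lines highest in 15, and the part of the set in this spread was not tested.

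The largest SD over lines was at Gm11734, Gm10287, Gm40968 and Gm39822, which were chosen for it. At Gm10287, a lincRNA gene on chromosome 3 with 13 sites (chr3:149225891-149226020), the control-F1 lines 29, 37, 44 and 45 had 95.8%, 5.04%, 15.7% and 9.33%. The ICSI-F1 lines 11, 17, 20 and 21 had 10.3%, 28.9%, 34.1% and 5.07%. A single control-F1 line was thus almost fully methylated at a promoter that was mostly unmethylated in the other 7. The group difference of −11.9 percentage points rested on that line and was 9.58 without it. At Gm40968 on chromosome 13, whose nearest coding start is that of the neurotrophin receptor gene Ntrk2, the control-F1 lines had 6.81%, 38.9%, 64.4% and 28.6% and the ICSI-F1 lines 85.8%, 20.4%, 16.5% and 17.98%. There 1 ICSI-F1 line stood above the others, the group means were within 0.5002 percentage points of each other, and the difference was 30.2 within set 1 and −29.2 within set 2.

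Between control-F1 and ICSI-F1 GS cells the mean level over the Gm sites did not differ beyond the spread between lines. It was 24.9% ± 2.06 (SD, n = 4) in control-F1 and 25.4% ± 1.47 in ICSI-F1 cells. The gap of 0.537 percentage points was below either SD (exact permutation test, two-sided, all 70 arrangements of the lines, p = 0.657, where 4 lines against 4 cannot go below 0.0286). It was 0.960 within library set 1 and 0.115 within set 2, and it was −0.0648 without line 37. In islands the difference was −0.126 and outside islands, shores and shelves 1.11 percentage points, again with overlapping groups. The difference between the groups at Gm sites exceeded that at other genes by 0.715 percentage points (exact permutation test, p = 0.114). Without line 44 this excess was 1.05 (p = 0.0286 in the exact permutation test), so the result depends on that line.

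No Gm site or promoter passed a false discovery rate of 0.05. A quasi-binomial logistic model with the dispersion moderated across sites by limma was fitted to all sites of the table, and 0 of 7013 Gm sites passed, as did 0 of 708 Gm promoters in the same model on summed reads. The background share passing was 0% of 194506 autosomal sites and 0% of 8995 autosomal promoters. The smallest adjusted p from this limma-moderated model was 0.176 at Gm sites and 1.00 at Gm promoters. At an unadjusted p under 0.05 there were 644 Gm sites (9.18%), 352 higher and 292 lower in ICSI-F1, against 7.05% of all autosomal sites. At the same threshold there were 40 Gm promoters (5.65%), 31 higher and 9 lower, against 2.87% of all autosomal promoters. limma on the log ratio of methylated to unmethylated reads also passed 0 sites and 0 promoters, with 336 sites and 43 promoters at an unadjusted p under 0.05, where the background was 3.48% of the autosomal sites and 2.98% of the autosomal promoters. Leaving out line 44 gave 18 of 6919 Gm sites below the threshold, against 70 of 190734 autosomal sites (0.0367%). Without line 11 there were 3 Gm sites, all in Gm33728, among 6 autosomal sites (0.0031%), and without line 17 there was 1, in Gm5784, among 16 (0.00829%). Restricting the sites to those with at least 30 reads in every line gave 11 of 5194, 10 of them higher in ICSI-F1, against 80 of 154923 autosomal sites (0.0516%). Of these 11, 3 lay in Gm33728, 2 in Gm36210 and 1 each in Gm39822, Gm10198, Gm15966, Gm50037, Gm42797 and Gm36356. Sites of the same promoter, such as the 3 in Gm33728, often lie close together and can share reads. The site counts here and below are therefore not counts of independent observations.

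The study's methods use a threshold of size with no test, and they drop sites with a reversed change in any sample, a condition that can be read more than one way. In the looser reading used here, a site was counted where the gap between the group means exceeded 20 percentage points, unless an ICSI-F1 line deviated from the control-F1 mean the opposite way. By this looser rule 93 Gm sites in 44 promoters (1.301% of the sites) were higher in ICSI-F1 cells, against a background of 0.275% of all autosomal sites. In the other direction 18 sites in 9 promoters (0.252%) were lower, against 0.0437%. With the 8 Gm genes that the selection set aside, which held 59 such higher and 8 such lower sites among 131, the higher count was 152. In a stricter reading, with groups that do not overlap, 14 Gm sites were higher (0.196%, background 0.0671%) and 0 lower (background 0.00845%). Over all autosomal sites the stricter reading gave 135 higher and 17 lower, and the looser reading gave 554 and 88. The counts the study reports, over a larger set of sites, are close to those of the stricter reading. The 20-point rule named below is the looser one, which counts more sites. The counts by the looser rule were not stable to single lines, and without line 44 the higher count was 172. For the lower count the value was 36 without line 29, 36 without line 45, 10 without line 11, 28 without line 20 and 50 without line 21.

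The sites past 20 points in the looser reading lay mostly where the level was intermediate. Of the 93 higher sites, 76 lay outside islands, shores and shelves, 7 in shelves, 7 in shores and 3 in islands. Outside islands, shores and shelves 2.56% of the Gm sites and 1.03% of the sites of other genes were counted as higher, a difference that was not tested. All 18 lower sites lay outside islands, shores and shelves. Of the 53 promoters with a counted site, 38 were in the class between 20% and 80%, 11 at 80% or above and 4 below 20%. In 28 of the 53 it was 1 site. None of the 53 held sites in both directions, and 2 had a coding start within 1 kb.

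Counting promoters with at least 5 sites, the group means differed by more than 10 percentage points in 27 of 387. They were higher in ICSI-F1 in 18 (4.65%, background 1.08%) and lower in 9 (2.33%, background 0.351%). The groups did not overlap in 7 promoters, 3 higher (background 0.435%) and 4 lower (background 0.687%). The 3 higher ones were Gm10198, Gm10787 and Gm36210, with differences of 15.6 to 29.7 percentage points. The 4 lower ones, named after their values were seen, were Gm20110, Gm35733, Gm36283 and Gm43298, with differences of −5.17 to −1.59 percentage points at levels of 91.4% or above. The median difference over the 387 promoters was 0.0119 percentage points, with 195 higher and 192 lower in ICSI-F1.

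**Figure D4:**
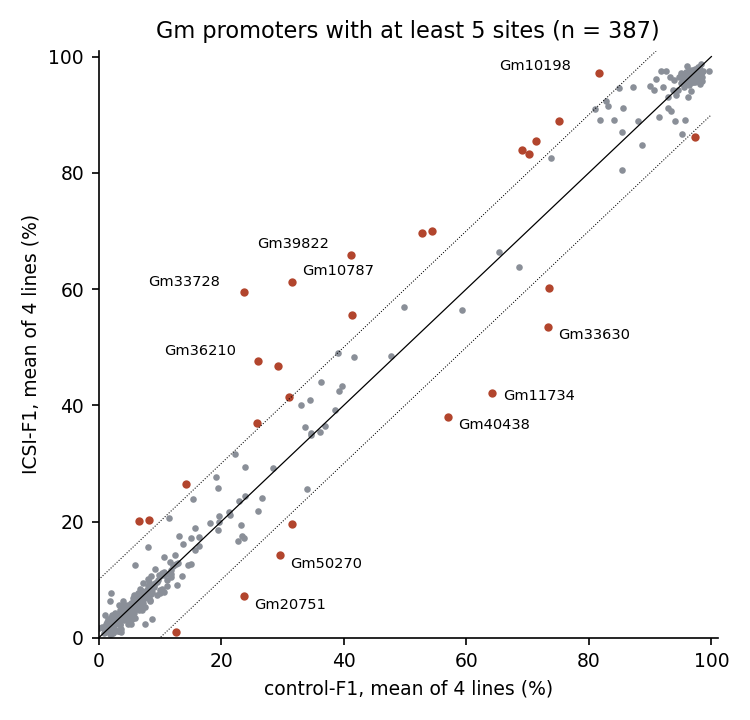
Mean promoter methylation level (%) in the 4 ICSI-F1 lines (vertical axis) against that in the 4 control-F1 lines (horizontal axis) for the 387 Gm promoters with at least 5 sites, 1 point each. Dotted lines mark 10 percentage points from equality, and the 27 promoters beyond them (18 above, 9 below) are coloured and lie mostly at intermediate levels.

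The largest excess in ICSI-F1 cells was at Gm33728, a lincRNA gene on chromosome 10 whose 6 sites (chr10:21252302-21252399) are those printed above. The control-F1 lines 29, 37, 44 and 45 had 7.21%, 27.0%, 37.1% and 23.8%, and the ICSI-F1 lines 11, 17, 20 and 21 had 29.5%, 46.4%, 75.5% and 86.7%. The means were 23.8% ± 12.4 and 59.5% ± 26.3 (SD, n = 4), a difference of 35.8 percentage points. Lines 44 and 11 overlapped, and the difference was 20.9 within set 1 and 50.7 within set 2 (exact two-sided permutation test, p = 0.0571, with limma-moderated model p = 0.0102 and adjusted p = 1.00). The nearest coding start is that of Hbs1l, a factor in ribosome rescue, 43865 bases away.

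Gm10787, a lincRNA gene on chromosome 10, was next. Its 8 sites averaged 35.8%, 22.6%, 32.6% and 35.2% in control-F1 lines 29, 37, 44 and 45. The ICSI-F1 lines 11, 17, 20 and 21 had 37.5%, 66.8%, 46.6% and 94.2%. Every ICSI-F1 line was above every control-F1 line, with lines 29 and 11 closest, and the difference of the means was 29.7 percentage points (exact permutation test, p = 0.0286, the smallest possible, with an adjusted p of 1.00 in the limma-moderated model). The difference was 18.8 without line 21. Of the 8 sites, 5 passed the 20-point rule. The nearest coding start is that of Slc19a1, the reduced folate carrier.

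Gm36210, annotated as protein coding, lies on chromosome 7 and had 9 sites (chr7:4906815-4906938) of which 5 passed the 20-point rule. The control-F1 lines had 31.6%, 12.8%, 27.2% and 32.4%, and the ICSI-F1 lines 62.9%, 43.4%, 37.6% and 46.5%. The groups did not overlap, and the difference of 21.6 percentage points was 30.9 within set 1 and 12.2 within set 2. Gm10198 on chromosome 13 had 14 sites (chr13:111593345-111593478), all beyond the 3′ end of the short annotated gene. There the control-F1 lines had 72.5%, 70.1%, 96.2% and 87.8%, whereas the ICSI-F1 lines all lay between 96.6% and 97.8%. The difference of 15.6 percentage points was 25.9 within set 1 and 5.36 within set 2, since line 44 was close to the ICSI-F1 lines.

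At Gm39822 on chromosome 11 the control-F1 lines had 46.4%, 4.92%, 82.1% and 31.1%, and the ICSI-F1 lines 51.9%, 78.0%, 52.4% and 81.5%. The groups overlapped through line 44, which had the highest value of all. The difference of 24.8 percentage points was 12.7 without line 37 and 38.4 without line 44. It was 39.3 within set 1 and 10.3 within set 2. Gm15966 on chromosome 16 had 12 sites, 6 of them past the 20-point rule, with control-F1 lines at 18.3% to 48.3% and ICSI-F1 lines at 37.5% to 57.9%. Its nearest coding start is that of Ifnar2, a subunit of the type I interferon receptor. The difference at Gm15966 was 17.5 percentage points over all its sites and 24.5 with strands joined. It was 31.5 at the sites with at least 30 reads in every line. Those sites were the same 6 that passed the 20-point rule, all on 1 strand, so 31.5 leaves out the sites with smaller differences. Over all its sites the difference was 28.8 within set 1 and 6.20 within set 2. Gm11077 on chromosome 6 had a difference of 16.9 percentage points, with line 21 at 96.7% and the other ICSI-F1 lines between 58.5% and 63.1%. Without line 21 that difference was 7.88.

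**Figure D5:**
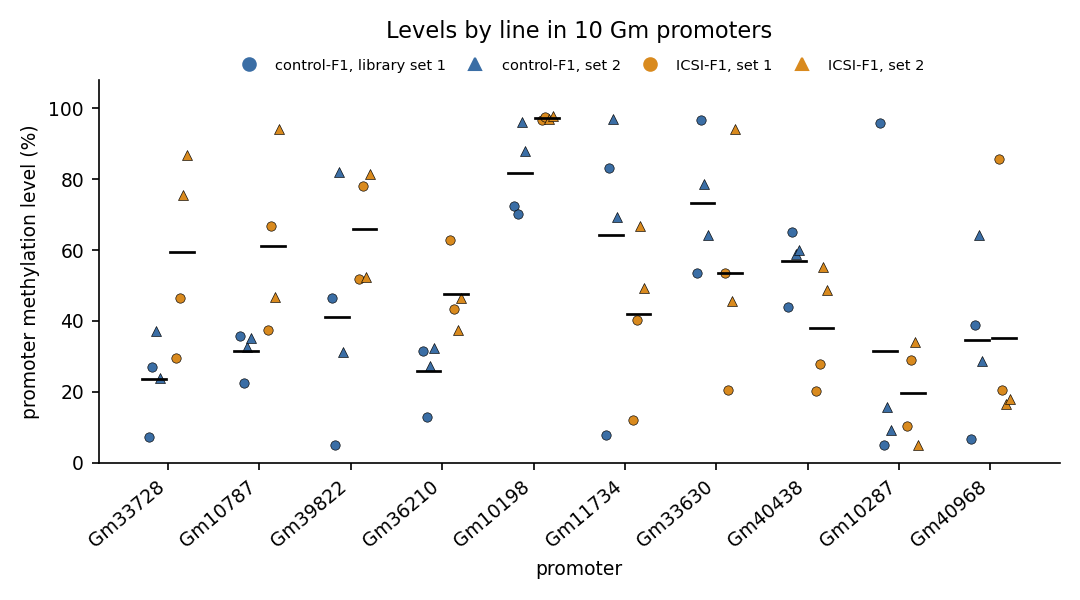
Promoter methylation level (%, vertical axis) in each control-F1 and ICSI-F1 line for 10 Gm promoters (horizontal axis), chosen for a large difference or a large spread, with circles for library set 1, triangles for set 2 and bars for the group means. The groups do not overlap at Gm10787, Gm36210 and Gm10198 and overlap in the other 7.

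The largest deficits in ICSI-F1 cells were at promoters with wide spread in at least one group. At Gm11734 on chromosome 11, whose 5 sites (chr11:117523322-117523368) are printed above, the control-F1 lines had 7.71%, 83.1%, 96.9% and 69.3%, and the ICSI-F1 lines 11.9%, 40.3%, 66.7% and 49.3%. The means were 64.3% ± 39.3 and 42.1% ± 22.9 (SD, n = 4), so the gap of −22.2 percentage points was within the control-F1 SD (exact permutation test, p = 0.371). It was −41.1 without line 29 and −11.3 without line 44. At Gm33630 on chromosome 13 the control-F1 lines had 53.5%, 96.7%, 78.7% and 64.4%, and the ICSI-F1 lines 53.6%, 20.5%, 45.7% and 94.2%. The difference was −19.8 percentage points over all lines, −38.0 within set 1 and −1.59 within set 2.

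Gm40438 on chromosome 12, whose nearest coding start is that of the Wnt pathway regulator Dact1, had control-F1 lines at 44.03%, 65.1%, 59.0% and 60.0% and ICSI-F1 lines at 20.1%, 27.9%, 55.2% and 48.7%. The groups overlapped through line 29, and the difference of −19.0 percentage points was not past the threshold (exact permutation test, p = 0.114). That difference was −30.5 within set 1 and −7.54 within set 2. At Gm20751 on chromosome 13 the ICSI-F1 lines were uniformly low, between 5.51% and 8.81%. The control-F1 lines were divided, with lines 37 and 44 at 40.8% and 39.4% and lines 29 and 45 at 9.25% and 5.32%. Gm50270 on chromosome 19 had control-F1 lines between 12.0% and 50.5% and ICSI-F1 lines between 3.54% and 33.5%. Its difference was −25.9 within set 1 and −5.00 within set 2.

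The remaining promoters with at least 4 sites past the 20-point rule were Gm42808, Gm50162 and Gm50414. Gm42808 on chromosome 5 had only 4 sites, all counted as higher, with control-F1 lines at 0.862%, 2.47%, 0% and 9.07% and ICSI-F1 lines at 50.5%, 9.93%, 33.3% and 13.6%. The groups did not overlap, although lines 45 and 17 were within 1 point of each other. Scaled coverage there was only 12 to 14 in lines 44, 45, 20 and 21. The 4 sites lay close together (chr5:140546457-140546467) on 1 strand, so they can share reads and are not independent. Gm50162 and Gm50414 lie on chromosome 18. At Gm50162, which lies nearest to the melanocortin receptor gene Mc4r, the control-F1 lines had 14.1%, 9.38%, 39.0% and 14.1% and the ICSI-F1 lines 20.5%, 26.4%, 19.5% and 44.1%. At Gm50414, with all 18 sites in a shelf, 5 sites were counted as higher. There the control-F1 lines ran from 44.98% to 96.5% and the ICSI-F1 lines from 56.8% to 97.3%. The difference at Gm50414 was 27.7 within set 1 and 2.07 within set 2.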

How the data were processed

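RRBS libraries of 8 GS cell lines were analysed, 4 control-F1 and 4 ICSI-F1. Per the labels and the study's methods, the authors trimmed reads with Trim Galore 0.5.0, mapped them with Bismark 0.20.0 (genome build mm10) and joined sites covered in all lines with methylKit (1.16.0 in the labels, another version in the methods). The deposited promoter table gives methylated and unmethylated read numbers per cytosine, and the 2 strands of a CpG are separate entries. The authors had scaled coverage between lines and rounded it, so the values are whole-number scores rather than raw reads, and the lowest value at a Gm site was 10. Scaling factors of 1 to 1.88 were recovered from the values, and undoing them was tried as an alternative. PCR duplicates cannot be recognised in such libraries, and the depth speaks to counting error alone.

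Gm promoters were found by symbol, and all 710 identifiers were matched to GENCODE M21 for biotype and coding starts. In that annotation 62 carried another name and 627 had the same gene bounds. Sequences, CpG content and soft-masking came from RefSeq GRCm38.p6 through pyfaidx 0.9.0.4, and 1 further promoter sequence is not reported here. Levels and exact permutation tests were computed in Python 3.11.15 with scipy 1.17.1. The quasi-binomial model, with Benjamini-Hochberg adjustment over all sites or promoters of the table, was run in R 4.3.3 with limma 3.58.1 and tested on simulated data. It was fitted to the scaled reads with no covariate. Named promoters were, among those with at least 5 sites, the 4 with the most sites, the 5 highest, the 6 with the largest excess and the 5 with the largest deficit in ICSI-F1, and the 4 with the largest SD over lines. Every promoter with at least 4 sites past the 20-point rule was added. The members and lists were chosen with earlier results of these data known. Alternatives were other thresholds, coverage, strand joining, weighting, library set, pseudocounts and leaving out each line.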

Additional observations from a re-analysis of the deposited data

Results flagged for a closer look

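In 56 groups of 4 lines, 5 had 1 line far from the others by Dixon's criterion. Chance alone meets it in about 1 in 20 groups that were not picked by their values. The groups here included promoters named for a large spread or difference, so 5 of 56 cannot be compared with that rate. The difference between Gm and other sites was 19.4 percentage points in ICSI-F1 line 21, against 18.3 to 18.4 in the other ICSI-F1 lines. Line 21 also stood apart at the Gm11077 promoter, with 96.7% against 58.5% to 63.1%. Control-F1 line 29 had 95.8% at the Gm10287 promoter, where the other control-F1 lines had 5.04% to 15.7%. ICSI-F1 line 11 had 85.8% at the Gm40968 promoter, against 16.5% to 20.4%. Control-F1 line 44 had 39.0% at the Gm50162 promoter, against 9.38% to 14.1%.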

How the results depend on the processing

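The difference between Gm and other sites kept its direction and its side of the threshold under every alternative run and stayed between 18.1 and 18.4 percentage points when 1 line was left out. The mean level of Gm sites differed between groups by −0.0648 to 1.39 percentage points when 1 line was left out and changed sign only without line 37. The excess of the group difference at Gm sites over other genes ran from 0.442 to 1.05 when 1 line was left out, passing the threshold only without line 44, and from 0.422 to 1.18 under the other alternatives. Counts by the looser 20-point rule were 93 higher and 18 lower. They were 218 and 91 at a threshold of 10 points, 27 and 2 at 30 points, and 14 and 0 where the groups had to be separate. The lower count was 30 without the condition on single lines and 51 within library set 2 alone, and the counts were 245 and 116 within set 1 alone. The higher count was 61 with at least 30 reads in every line and 152 with the 8 genes put back. Leaving out 1 line gave 68 to 172 higher and 10 to 50 lower sites. Sites past a false discovery rate of 0.05 numbered 11 with at least 30 reads and 0 to 18 when 1 line was left out, and promoters 0 throughout. The causes of these shifts were not tested. Undoing the scaling, and leaving out promoters that share a stretch of 100 bases or differ in gene bounds, were chosen after seeing the data, and none of them changed a direction or a call. Of 335 values of single promoters under the alternatives, 330 moved by less than the spread between lines. The exceptions were Gm15966 (31.5 with at least 30 reads), Gm40968 (30.2 in set 1, −29.2 in set 2) and Gm10198 (25.9 and 5.36). No paired analysis was possible because the groups share no line numbers.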
